A study of Mus musculus with 12 samples.

Results

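The genes described here are 39 members of the oxygen-sensing and sugar-burning machinery of the cell, 8 regulators of the hypoxia-inducible factors (HIF), 12 genes known as targets of hypoxia and 19 genes of glycolysis, out of 55376 genes in the count table. They were chosen by name from textbook membership and not by a cut on their measured values, but earlier results of these data were known. All 39 were in the table, and all 39 passed the filter on low counts, which left 15952 genes for testing. RNA-Seq was performed on the proximal part of the colon in 12-week-old animals, 6 of them EPR cKO and 6 EPR fl/fl, each giving 1 library. EPR is an epithelial long noncoding RNA that also encodes a small peptide, listed in the table as Smim31. All 12 mice carried the EPR gene flanked by loxP sites (fl/fl). The EPR cKO mice carried in addition the CDX2P-NLS Cre transgene, in which a human CDX2 promoter drives Cre recombinase in epithelial cells of the colon, the cecum and the end of the ileum, and so takes out the EPR promoter and first exon there. The EPR fl/fl controls carry no Cre in their labels, so that an effect of Cre itself and an effect of EPR loss cannot be told apart. The frozen tissue was taken whole, so that the epithelium was mixed with muscle wall, vessels, nerves, immune cells and fat, whereas the deletion concerns only the epithelium. In such bulk samples fewer cells of a type and less RNA per cell cannot be told apart.

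Every cell measures oxygen through the HIF proteins. In the presence of oxygen, prolyl hydroxylases mark the HIF alpha subunits for the von Hippel-Lindau ubiquitin ligase and their degradation; when oxygen is scarce, the alpha subunits persist, pair with ARNT and switch on genes that carry glucose into the cell, break it down to lactate and slow its use in mitochondria. The control acts mainly on the protein, so that the abundance of Hif1a mRNA is not a measure of HIF activity. The surface of the colon lies next to an almost oxygen-free lumen, and its epithelium is known for a low oxygen tension and for the burning of butyrate made by bacteria.

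The libraries held between 13093904 and 33211041 counts. The targeted gene followed the labels, with 297 to 1474 Smim31 counts in the EPR fl/fl libraries and 0 to 10 in the EPR cKO libraries, where a count of 0 allows up to 3 (log2 fold change −8.09, SE 0.47, edgeR adjusted p = 1.62e-06). All 30 pairs of libraries within a group differed by far more than sampling noise (chi-square of at least 24.7 per gene). One library stood apart in tissue content. The tissue score, which is the mean log2 level of 13 epithelium markers minus that of 11 smooth muscle markers, lay between 0.72 and 1.42 in EPR fl/fl, between 1.77 and 3.27 in 5 EPR cKO libraries and at −0.24 in EPR cKO 1. The mean score of the EPR fl/fl libraries was 0.99 ± 0.26 and that of the EPR cKO libraries 2.150 ± 1.302 (SD, n = 6 each, two-sided exact permutation p = 0.0628), and without EPR cKO 1 the difference was 1.64 (exact p = 0.00433). The summed level of the smooth muscle markers, in CPM (counts scaled to a common library size), was 3700 to 6320 in EPR fl/fl, 10900 in EPR cKO 1 and 1310 to 3240 in the remaining 5 EPR cKO libraries. Of the 39 members, EPR cKO 1 had the lowest value of its group in 12, among them 8 of the 15 glycolytic enzymes, and the highest in 10.

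Stretches upstream of 5 members are shown first, because the best known hypoxia response element is a short motif that can be looked for in them. Hif1a, Pfkl, Slc2a1 and Slc16a3 passed the adjusted threshold described below. Ldha did not pass it in edgeR (adjusted p = 0.0558) and held the most motif matches of the 5. Ndrg1 and Higd1a passed as well but are not shown. No upstream sequence was available for Ndrg1, and all 250 bases upstream of Higd1a were annotated as UTR. The sequences are those of RefSeq (GRCm38.p6, the same build as mm10), written 5′ to 3′ on the strand of the gene, and end at or near a RefSeq start site. Capitals mark the motif core ACGTG or GCGTG on either strand, so that CACGT and CACGC are marked as well. The Hif1a stretch (chr12:73907617-73907866, plus strand) and the Slc16a3 stretch (chr11:120948817-120949052, plus strand) lie in introns of the longest gene span in the count table. The stretches of Slc2a1 (chr4:119108495-119108710, plus strand), Pfkl (chr10:78009808-78010004, minus strand) and Ldha (chr7:46845554-46845803, plus strand) lie outside the gene. None of the 5 overlapped an exon of the count table, and bases that the annotation gives as UTR were left out, of which 34 lay next to the start site of Slc2a1 and 14 next to that of Slc16a3.
Hif1a: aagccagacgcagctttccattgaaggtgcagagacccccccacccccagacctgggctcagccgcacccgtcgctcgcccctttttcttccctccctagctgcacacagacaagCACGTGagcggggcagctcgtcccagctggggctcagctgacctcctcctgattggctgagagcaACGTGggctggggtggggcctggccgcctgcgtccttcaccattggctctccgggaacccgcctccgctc
Ldha: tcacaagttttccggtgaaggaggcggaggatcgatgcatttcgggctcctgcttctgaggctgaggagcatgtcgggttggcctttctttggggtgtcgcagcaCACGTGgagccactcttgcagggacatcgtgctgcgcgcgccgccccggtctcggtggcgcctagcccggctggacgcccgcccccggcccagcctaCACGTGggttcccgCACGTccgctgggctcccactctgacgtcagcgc
Pfkl: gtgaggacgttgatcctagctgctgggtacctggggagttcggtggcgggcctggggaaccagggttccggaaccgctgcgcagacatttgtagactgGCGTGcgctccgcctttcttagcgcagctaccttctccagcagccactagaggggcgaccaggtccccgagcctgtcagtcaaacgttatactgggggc
Slc2a1: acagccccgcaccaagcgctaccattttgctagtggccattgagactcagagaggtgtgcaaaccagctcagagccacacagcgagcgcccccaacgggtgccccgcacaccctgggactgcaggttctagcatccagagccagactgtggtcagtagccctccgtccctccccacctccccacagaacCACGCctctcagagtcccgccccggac
Slc16a3: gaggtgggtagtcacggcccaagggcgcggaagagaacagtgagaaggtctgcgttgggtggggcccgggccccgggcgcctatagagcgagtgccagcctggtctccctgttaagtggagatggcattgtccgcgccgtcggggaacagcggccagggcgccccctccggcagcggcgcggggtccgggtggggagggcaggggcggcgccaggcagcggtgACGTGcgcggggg
Hif1a and Ldha carried the palindrome CACGTG, which counts as 2 overlapping matches, at 135 bases upstream of the start in Hif1a and at 145 and 48 bases in Ldha. In the stretches shown, Pfkl, Slc2a1 and Slc16a3 each held a single match, which began 99, 61 and 27 bases upstream. Leaving out the UTR bases next to the start cut off a further core match in Slc2a1 and in Slc16a3. It began 36 bases upstream in Slc2a1 and 14 bases upstream in Slc16a3.

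Across whole windows of 250 bases upstream, 32 of the 36 members with a window in the RefSeq table (88.9%) held at least 1 core match in at least 1 window. The share was 59.7% of the 11137 tested genes with a window and 41.5% of all 27025 genes. By role it was 5 of 7 HIF regulators, 10 of 10 hypoxia targets and 17 of 19 glycolysis genes. A gene with more windows has more chances to hold a match. Counted by window, 41 of 54 member windows (75.9%) held a match, against 38.6% of all 32851 windows. Member windows had a median G and C content of 61.0%, against 59.2% for windows of tested genes and 52.4% for all windows, and 9.26% of member windows held CACGTG, against 7.95% and 6.02%. Among the members, CACGTG lay in windows of Hif1a and Ldha, with log2 fold changes of 0.62 and 0.43. It also lay in windows of Bnip3, Pfkfb3 and Pfkm, with log2 fold changes of −0.54, −1.19 and −0.22. The window of Bnip3 held 5 matches, as many as that of Ldha. A match of 5 letters is a description of the window and not a binding site.

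As a group, the members lay more often above than below the EPR fl/fl level in EPR cKO. The log2 fold change was above 0 in 28 of 39 members (71.8%), against 52.8% of all tested genes, and its median was 0.17, against 0.02. At an adjusted p under 0.05 (edgeR quasi-likelihood F test, adjusted over all 15952 tested genes), 6 members rose in EPR cKO and 0 fell, where 0.884% of all tested genes rose and 1.57% fell. The 6 were Hif1a, Ndrg1, Higd1a, Pfkl, Slc2a1 and Slc16a3. At an unadjusted p under 0.05, 18 members were higher and 2 lower, against 11.1% and 7.12% of all tested genes. Other tools called more members and more genes at an adjusted p under 0.05. DESeq2 called 9 members higher and 2 lower (2.76% and 2.97% of all tested genes), and limma-voom 8 and 1 (1.10% and 2.05%). Limma-voom with quality weights, which gives less weight to libraries that stand apart, called 18 members higher and 6 lower (8.60% and 11.9% of all tested genes), so that its 6 lower members, 15.4% of 39, lay near the background. The groups did not overlap, with all EPR cKO libraries above all EPR fl/fl libraries, for 5 members (Hif1a, Ndrg1, Pfkl, Eno1 and Ldha), against 1.00% of all tested genes. No member had all EPR cKO libraries below all EPR fl/fl libraries, against 1.47% of all tested genes. Leaving out EPR cKO 1 gave 12 members higher and 6 lower, but also 7.44% of all tested genes higher and 14.4% lower, so that the 6 lower members (15.4%) were at the background. Leaving out EPR fl/fl 4 gave 3 members higher and 0 lower, with 0.195% and 0.914% of all tested genes. In the fit without EPR cKO 1 the groups did not overlap in tissue score, so that genotype and tissue content cannot be told apart there. The fit with the tissue score as a covariate has a like limit. All EPR cKO libraries scored outside the control range, EPR cKO 1 below it and the others above it. Its separation of genotype and tissue score therefore rests on EPR cKO 1, and its values cannot settle the part of tissue content.

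**Figure D1:**
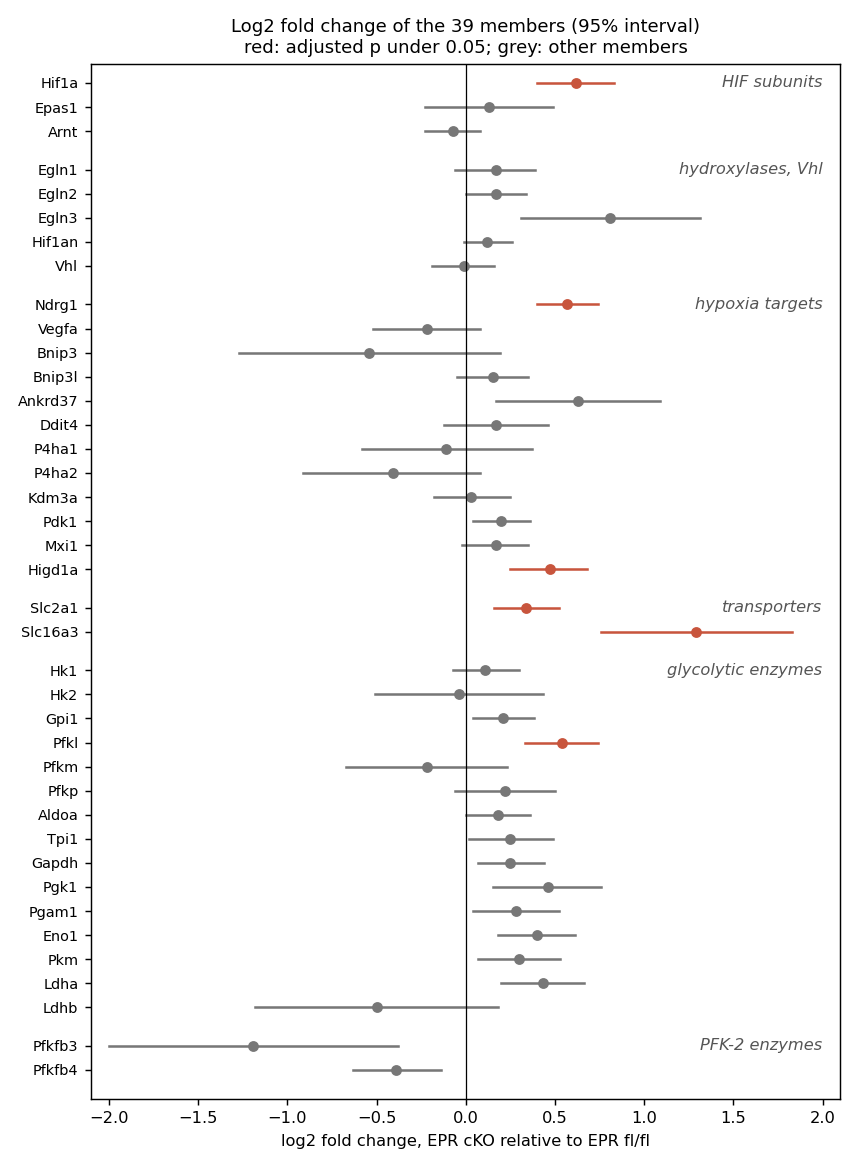
Log2 fold change of each of the 39 members in EPR cKO relative to EPR fl/fl (points) with its 95% interval (lines), ordered by role, for 6 libraries in each group. The 6 members in red, Hif1a, Ndrg1, Higd1a, Slc2a1, Slc16a3 and Pfkl, passed an adjusted p under 0.05, while Pfkfb3 lies farthest to the left at −1.19 with a wide interval.

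Of the HIF subunits, Hif1a, the oxygen-regulated alpha subunit found in nearly all cells, was the one that changed. Hif1a (chromosome 12, 73901375 to 73947530, plus strand, mm10) had a lowest, median and highest level of 46.9, 64.6 and 68.9 CPM in EPR fl/fl and of 88.8, 90.3 and 100 CPM in EPR cKO. Every EPR cKO library therefore lay above every EPR fl/fl library, and EPR cKO 1, with 90.3 CPM, lay among the others. The mean rose from 60.7 ± 9.74 to 93.0 ± 5.01 CPM (SD, n = 6), or by 0.62 on the log2 scale (adjusted p = 0.00523, SE 0.10). Hif1a stayed called whichever of the 12 libraries was left out, with an adjusted p of at most 0.0172, and with the tissue score as a covariate the log2 fold change was 0.59 (adjusted p = 0.0197). Exon bases of Hif1a shared with antisense genes made up 6.06% of its length.

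The paralogous alpha subunit Epas1 (HIF-2 alpha), known for its high levels in endothelium, ranged from 76.8 to 114 CPM in EPR fl/fl and from 67.2 to 141 CPM in EPR cKO. The groups overlapped widely, and the log2 fold change of 0.13 had a 95% interval of −0.23 to 0.49 (adjusted p = 0.685). For Epas1 the log2 fold change was 0.37 with the tissue score as a covariate (edgeR adjusted p = 0.244). Arnt, the shared partner of both alpha subunits, had a log2 fold change of −0.07 (95% interval −0.23 to 0.08, adjusted p = 0.595). Per kb of exons, the mean level of Hif1a was 11.1 CPM in controls and 17.1 CPM in EPR cKO, and that of Epas1 was 16.8 and 18.4 CPM. The ratio of Hif1a to Epas1 per kb, taken within each library, was 0.662 in controls and 0.96 in EPR cKO, a log2 difference of 0.53 that did not pass the test (two-sided exact permutation p = 0.0628, adjusted p = 0.0785 over 5 ratios).

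Of the 4 HIF hydroxylases and Vhl, 0 passed the adjusted threshold in edgeR and in limma-voom, 2 had an unadjusted p under 0.05, and Egln3 was called by DESeq2 and by limma-voom with quality weights. Egln3 encodes PHD3, a prolyl hydroxylase that is itself a classical HIF target. Its lowest, median and highest levels were 14.5, 23.3 and 34.5 CPM in EPR fl/fl and 24.6, 40.3 and 55.8 CPM in EPR cKO. In EPR cKO, 4 of 6 libraries lay above the highest control, and the groups overlapped in the others. The log2 fold change was 0.81 (adjusted p = 0.0896, SE 0.23). It passed with the tissue score as a covariate (1.04, adjusted p = 0.0456) and without EPR cKO 1 (0.70, adjusted p = 0.0462).

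The other prolyl hydroxylases showed smaller differences, with log2 fold changes of 0.17 for Egln1 (PHD2, the main oxygen sensor, 95% interval −0.06 to 0.39) and 0.17 for Egln2 (PHD1, 95% interval 0.00 to 0.34). Egln3 per kb was 0.669 times Egln1 in EPR fl/fl and 1.04 times in EPR cKO, a log2 difference of 0.64 (exact permutation p = 0.0152, adjusted p = 0.0325 over 5 ratios). Hif1an encodes FIH, the asparagine hydroxylase that blocks the HIF coactivator site, and had a log2 fold change of 0.12 (95% interval −0.01 to 0.26). Vhl, which encodes the substrate subunit of the ligase, had a log2 fold change of −0.01 (95% interval −0.19 to 0.16), with 18.9 to 22.2 CPM in EPR fl/fl, 23.6 CPM in EPR cKO 1 and 17.6 to 21.5 CPM in the rest of EPR cKO, and 0.07 with the tissue score as a covariate.

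Among the 12 hypoxia targets, 2 rose and 0 fell. Ndrg1, an established hypoxia-induced gene that is also a marker of epithelial differentiation, gave the smallest adjusted p of the 39 members. Its levels (chromosome 15, 66929318 to 66969640, minus strand) were 229, 261 and 282 CPM (lowest, median, highest) in EPR fl/fl and 344, 377 and 447 CPM in EPR cKO. The groups were clearly apart, with the lowest EPR cKO library well above the highest control. The mean rose from 258 ± 19.6 to 384 ± 36.0 CPM (SD, n = 6), with a log2 fold change of 0.57 (adjusted p = 0.00166, SE 0.08), and the log2 fold change was 0.53 with the tissue score as a covariate (adjusted p = 0.00813). Antisense genes covered 19.2% of its exon bases, and each of the overlapping genes had at most 0.0852% of its counts.

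Higd1a encodes a small protein of the inner mitochondrial membrane that is induced by hypoxia. It ranged from 231 to 300 CPM (median 279) in EPR fl/fl and from 300 to 452 CPM (median 372) in EPR cKO. Of the EPR cKO libraries, 5 lay above the highest control and 1 overlapped with the controls. Higd1a was higher by 0.47 on the log2 scale (adjusted p = 0.0279, SE 0.10). When each of the 12 libraries was left out in turn, it was called in 3 fits, those without EPR fl/fl 2, EPR cKO 1 or EPR cKO 2, and with the tissue score as a covariate the log2 fold change was 0.36 (adjusted p = 0.107). Of its 50-base stretches, 24.4% were shared with other genes, mainly an antisense gene that had 0.569% of its counts.

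The remaining 10 hypoxia targets did not pass the threshold and did not share a direction. Ankrd37, a short HIF target gene, had the largest log2 fold change among them, 0.63 (adjusted p = 0.150, SE 0.21), with 6.88 to 12.3 CPM in EPR fl/fl and 9.66 to 23.8 CPM in EPR cKO. Its value is uncertain, as antisense genes covered 26.2% of its exon bases and the overlapping gene Ufsp2 had 226% of its counts. Pdk1, which encodes a kinase that inhibits pyruvate dehydrogenase, had a log2 fold change of 0.20 (adjusted p = 0.178, SE 0.07). For Pdk1, 3 of 6 EPR cKO libraries lay above the highest control. Vegfa, the angiogenic growth factor, had −0.22 (95% interval −0.52 to 0.08). Ddit4, an inhibitor of mTOR signalling, had 0.17 (95% interval −0.12 to 0.46), Mxi1, an antagonist of MYC, 0.17 (−0.02 to 0.35), and the histone demethylase gene Kdm3a 0.03 (−0.18 to 0.25).

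For 5 hypoxia targets, EPR cKO 1 stood above the rest of its group. Vegfa was at 46.9 CPM in EPR cKO 1 and at 30.1 to 39.9 CPM in the others, against 33.4 to 51.9 CPM in EPR fl/fl, and its log2 fold change was −0.31 without EPR cKO 1 and −0.08 with the tissue score as a covariate. Bnip3, a mitophagy receptor, was at 36.3 CPM in EPR cKO 1 and at 8.32 to 16.0 CPM in the other EPR cKO libraries, against 15.8 to 33.5 CPM in EPR fl/fl. P4ha2, a collagen prolyl hydroxylase, was at 8.20 CPM in EPR cKO 1 and at 2.59 to 4.11 CPM in the others, against 5.43 to 6.37 CPM in EPR fl/fl. P4ha1, of the same enzyme family, was at 34.9 CPM in EPR cKO 1 and at 11.9 to 27.6 CPM in the others, against 18.9 to 28.2 CPM. Bnip3l, the paralogue of Bnip3, was at 109 CPM in EPR cKO 1 and at 76.2 to 84.2 CPM in the others, against 66.6 to 86.7 CPM in EPR fl/fl. In these 4 genes other than Vegfa, EPR cKO 1 was the highest of the 12 libraries, and it had the lowest tissue score. The log2 fold changes were −0.54 for Bnip3, −0.41 for P4ha2, −0.11 for P4ha1 and 0.15 for Bnip3l (adjusted p = 0.406, 0.358, 0.812 and 0.392). Without EPR cKO 1 they were −0.99, −0.71, −0.32 and 0.05 (adjusted p = 0.0107, 0.00568, 0.220 and 0.616, in a fit that called 14.4% of all genes lower), and with the tissue score as a covariate −0.09, −0.07, 0.23 and 0.27. Other genes shared 47.2% of the 50-base stretches of Bnip3 and 20.8% of those of Bnip3l, so that their counts are uncertain.

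Of the 19 glycolysis genes, 3 rose and 0 fell in edgeR, and both membrane transporters were among the 3. DESeq2 and limma-voom called Ldha and Eno1 higher as well, and as lower DESeq2 called Pfkfb3 and Pfkfb4 and limma-voom Pfkfb3. Slc16a3 encodes MCT4, the exporter of lactate from glycolytic cells and a HIF target. It was rare in this tissue, with lowest, median and highest levels of 2.73, 3.47 and 5.86 CPM in EPR fl/fl and of 4.71, 9.17 and 13.3 CPM in EPR cKO. In EPR cKO 5 of 6 libraries lay above the highest control, and EPR cKO 5, at the bottom of its group, overlapped with it. The mean rose from 3.80 ± 1.10 to 9.28 ± 2.97 CPM (SD, n = 6), with a log2 fold change of 1.29 (adjusted p = 0.0157, SE 0.25), which was the largest rise of the 39 members. With the tissue score as a covariate the adjusted p was 0.0370, and without EPR fl/fl 4 the adjusted p was 0.0506.

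Slc2a1 encodes GLUT1, a glucose importer known to be induced by HIF. Its levels were 103, 122 and 130 CPM in EPR fl/fl and 125, 154 and 163 CPM in EPR cKO, and 5 of 6 EPR cKO libraries lay above the highest control. The log2 fold change of 0.34 (SE 0.08) was close to the threshold (adjusted p = 0.0496). When each of the 12 libraries was left out in turn, it was called in 2 fits, those without EPR cKO 1 or EPR cKO 4, and the adjusted p lay between 0.0268 and 0.123. With the tissue score as a covariate the log2 fold change was 0.39 (adjusted p = 0.0520).

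**Figure D2:**
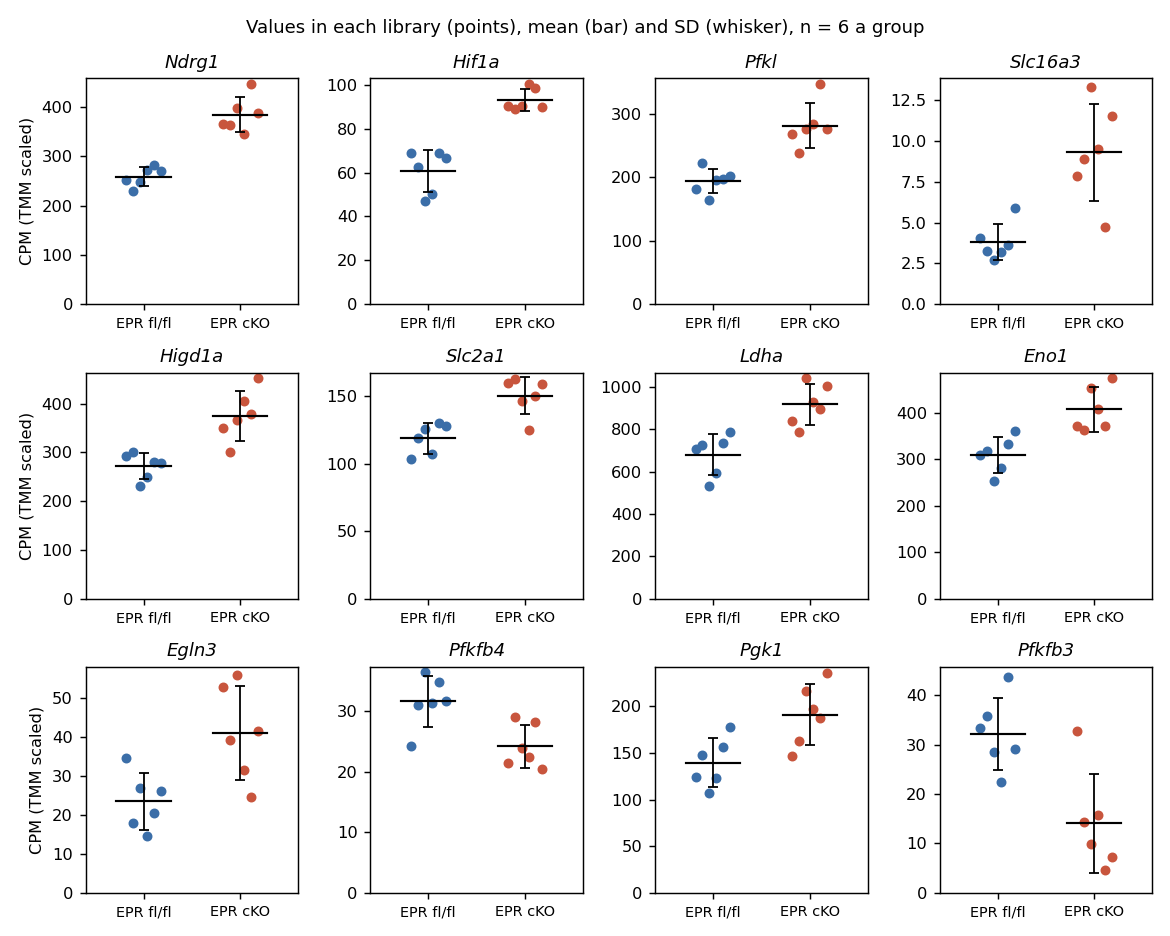
CPM (TMM scaled) of 12 members in each library (points), with the mean (bar) and SD (whisker) of the 6 EPR fl/fl (blue) and 6 EPR cKO (red) libraries, ordered by increasing p. The groups are apart for Hif1a, Ndrg1, Pfkl, Ldha and Eno1, and for Pfkfb3 a single EPR cKO library, at 32.7 CPM, lies among the controls.

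The 15 glycolytic enzymes lay mostly above the control level, 12 above and 3 below 0 on the log2 scale with a median of 0.25. The share above 0 was 80.0%, against 52.8% of all tested genes, and the median of the 13 epithelium markers was also 0.25. Of the enzymes 1, Pfkl, passed the adjusted threshold in edgeR. DESeq2 and limma-voom each called 3 (Pfkl, Ldha and Eno1). Limma-voom with quality weights called 11 higher and 2 lower, against 8.60% and 11.9% of all tested genes. Pfkl encodes the liver-type subunit of phosphofructokinase 1, which commits sugar to glycolysis. Its levels (chromosome 10, 77986947 to 78009807, minus strand) were 165, 197 and 222 CPM (lowest, median, highest) in EPR fl/fl and 239, 275 and 346 CPM in EPR cKO. The groups did not overlap. The mean rose from 194 ± 19.3 to 281 ± 35.5 CPM (SD, n = 6), or by 0.54 on the log2 scale (adjusted p = 0.00921, SE 0.09), and Pfkl stayed called whichever of the 12 libraries was left out (adjusted p at most 0.0371). With the tissue score as a covariate the log2 fold change was 0.44 (adjusted p = 0.0377).

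Ldha and Eno1 had groups that did not overlap but adjusted p values just above the threshold in edgeR. Ldha encodes the lactate dehydrogenase subunit that favours the making of lactate from pyruvate. Its levels were 533, 718 and 786 CPM in EPR fl/fl and 790, 913 and 1040 CPM in EPR cKO, with the lowest EPR cKO library only just above the highest control (log2 fold change 0.43, SE 0.11, adjusted p = 0.0558). Eno1, or enolase 1, had 254, 313 and 362 CPM in EPR fl/fl and 363, 390 and 476 CPM in EPR cKO, again with neighbouring extremes (log2 fold change 0.40, SE 0.10, adjusted p = 0.0587). Pgk1 encodes phosphoglycerate kinase, the first step that returns ATP, and had 107, 136 and 178 CPM in EPR fl/fl and 147, 193 and 236 CPM in EPR cKO. In Pgk1, 4 of 6 EPR cKO libraries lay above the highest control (log2 fold change 0.46, SE 0.14, adjusted p = 0.110). Ldha, Eno1 and Pgk1 had log2 fold changes of 0.36, 0.33 and 0.27 with the tissue score as a covariate (edgeR adjusted p = 0.163, 0.175 and 0.419). Reads of these genes may be divided with processed copies, as 53.9% of the 50-base stretches of Pgk1, 26.0% of those of Eno1 and 9.26% of those of Ldha were shared with other genes.

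The other enzymes of the common path had small positive values that did not pass. In the order of the pathway, the log2 fold changes were 0.21 (SE 0.08) for the glucose phosphate isomerase gene Gpi1, 0.18 (SE 0.08) for the aldolase gene Aldoa, 0.25 (SE 0.11) for the triose phosphate isomerase gene Tpi1 and 0.25 (SE 0.09) for Gapdh. They were 0.28 (SE 0.11) for the phosphoglycerate mutase gene Pgam1 and 0.30 (SE 0.11) for the pyruvate kinase gene Pkm. Their adjusted p values ran from 0.154 for Gapdh to 0.279 for Aldoa. For each of these 6 genes, between 2 and 4 EPR cKO libraries lay above the highest control and none below the lowest. In EPR cKO 1 each of the 6 except Gapdh had the lowest value of its group, such as 317 CPM against 360 to 473 CPM in the others for Tpi1 and 41.6 CPM against 44.1 to 62.6 CPM for Pgam1. With the tissue score as a covariate their log2 fold changes lay between 0.06 for Tpi1 and 0.24 for Pkm, with 0.09 for Pgam1. Other genes shared 36.2% of the 50-base stretches of Pgam1, 25.8% of those of Pkm and 25.1% of those of Gapdh.

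The hexokinases, which trap glucose in the cell as the first step of the pathway, showed no difference that could be told from the spread. Hk1 had a log2 fold change of 0.11 (95% interval −0.07 to 0.30). Hk2, the inducible isoform and a classical HIF target, ranged from 134 to 309 CPM in EPR fl/fl and from 146 to 269 CPM in EPR cKO, so that the EPR cKO libraries lay inside the range of the controls (log2 fold change −0.04, 95% interval −0.51 to 0.43). The ratio of Hk2 to Hk1 per kb was 1.01 in controls and 0.926 in EPR cKO (exact permutation p = 0.522, adjusted p = 0.522 over 5 ratios).

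Within 2 enzymes the isoforms that share a reaction differed in their values. Phosphofructokinase 1 is built from the subunits Pfkl, Pfkm (muscle type) and Pfkp (platelet type), and lactate dehydrogenase from Ldha and Ldhb, of which Ldhb is the heart type and favours the reverse reaction. Pfkm lay between 13.1 and 15.2 CPM in EPR fl/fl, at 21.3 CPM in EPR cKO 1 and between 7.83 and 13.1 CPM in the other EPR cKO libraries. Ldhb lay between 8.87 and 12.3 CPM in EPR fl/fl, at 16.8 CPM in EPR cKO 1 and between 3.59 and 7.59 CPM in the others. For both genes 5 of 6 EPR cKO libraries were therefore below every control and EPR cKO 1 above every control, and the log2 fold changes of −0.22 for Pfkm and −0.50 for Ldhb did not pass (adjusted p = 0.583 and 0.414). Without EPR cKO 1 they were −0.49 and −0.94 (adjusted p = 0.0173 and 0.00531), and with the tissue score as a covariate 0.15 and 0.00. Pfkp had a log2 fold change of 0.22 (95% interval −0.06 to 0.50). Of the 50-base stretches of Ldhb, 21.0% were shared with another gene.

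The ratio of Pfkl to Pfkm per kb was 11.2 in controls and 20.0 in EPR cKO (log2 difference 0.84, exact permutation p = 0.0195, adjusted p = 0.0325 over 5 ratios). The ratio of Ldha to Ldhb was 45.0 and 98.0 (log2 difference 1.12, exact permutation p = 0.0195, adjusted p = 0.0325). On the log2 scale the Ldha to Ldhb ratio was 5.23 to 5.82 in EPR fl/fl, 5.10 in EPR cKO 1 and 6.16 to 7.42 in the 5 further EPR cKO libraries, and the Pfkl to Pfkm ratio was 3.12 to 3.76, 3.33 and 3.87 to 5.07. The EPR cKO libraries other than EPR cKO 1 thus lay above every control in both ratios and in tissue score, and the part of tissue content in these ratios was not tested.

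**Figure D3:**
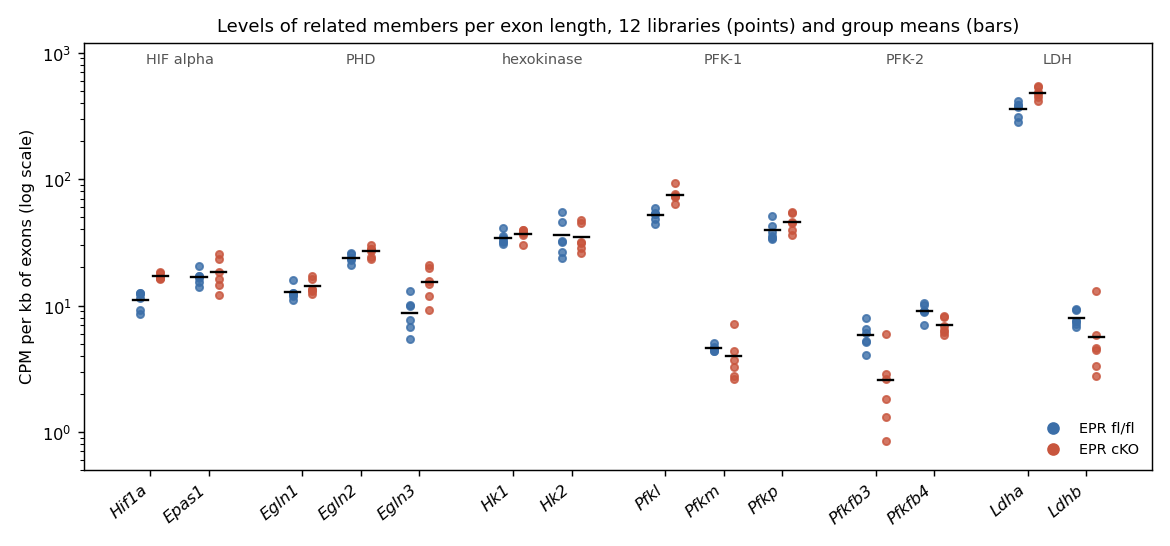
Level of related members in CPM per kb of exons on a log axis, in each EPR fl/fl (blue) and EPR cKO (red) library (points), with group means (bars). Ldha is the most abundant of these genes, at a mean of 359 and 484 CPM per kb, and the highest EPR cKO point of Pfkm, Pfkfb3 and Ldhb is the same library, EPR cKO 1.

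The 2 bifunctional enzymes, which make and remove fructose 2,6-bisphosphate and thereby set the pace of phosphofructokinase 1, were the only glycolysis genes lower at an unadjusted p under 0.05. Both are also known HIF targets. Pfkfb3 had lowest, median and highest levels of 22.5, 31.2 and 43.7 CPM in EPR fl/fl and of 4.68, 12.2 and 32.7 CPM in EPR cKO. EPR cKO 1 held the 32.7 CPM and lay inside the control range, while the other 5 EPR cKO libraries, at 4.68 to 15.8 CPM, lay below every control. The log2 fold change was −1.19 (adjusted p = 0.120, SE 0.37), −1.65 without EPR cKO 1 (adjusted p = 0.00300) and −0.70 with the tissue score as a covariate (adjusted p = 0.215). Pfkfb4 had 24.3, 31.6 and 36.5 CPM in EPR fl/fl and 20.5, 23.2 and 29.0 CPM in EPR cKO, where EPR cKO 1 was at 21.4 CPM. Its log2 fold change was −0.39 (adjusted p = 0.104, SE 0.11), −0.37 without EPR cKO 1 (adjusted p = 0.0392) and −0.41 with the tissue score as a covariate (adjusted p = 0.184). DESeq2 and limma-voom with quality weights called both genes lower, and limma-voom called Pfkfb3.

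**Figure D4:**
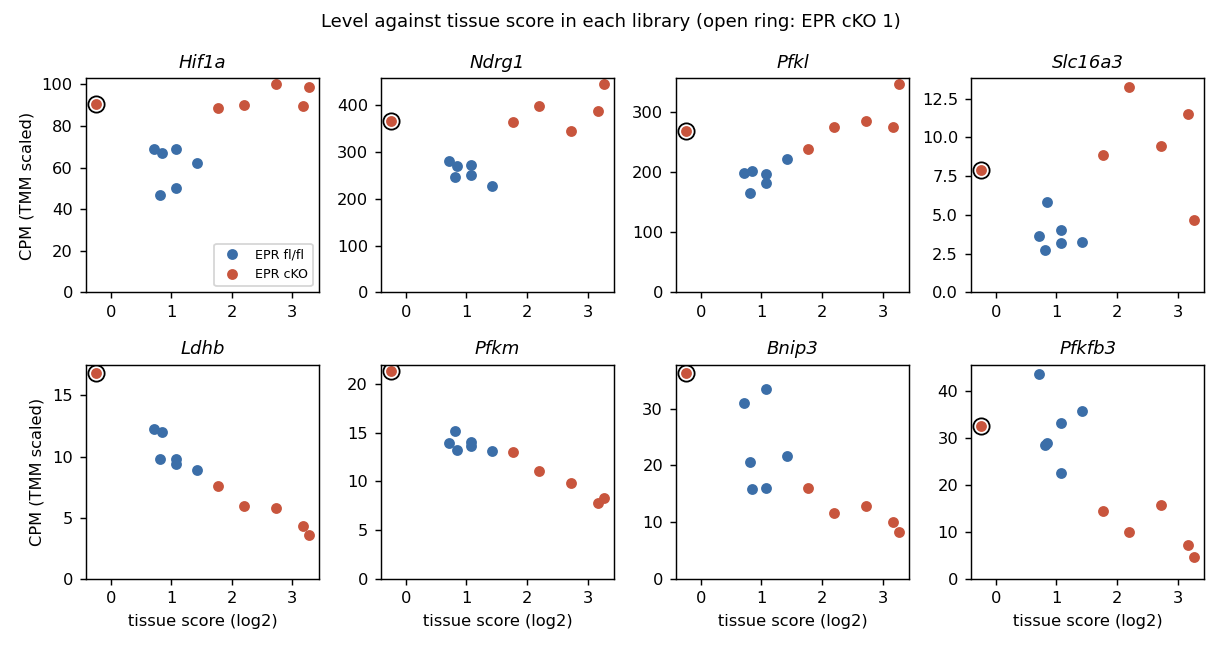
CPM (TMM scaled) of 8 members against the tissue score (log2; high values mean more epithelium marker and less smooth muscle marker RNA) in each EPR fl/fl (blue) and EPR cKO (red) library, with EPR cKO 1 ringed. In the upper row Hif1a, Ndrg1, Pfkl and Slc16a3 are high in EPR cKO 1 although its score of −0.24 is the lowest, while in the lower row Ldhb, Pfkm and Bnip3 are highest in that library.

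Most members were of middling to high abundance in this tissue, and the order of levels per kb of exons was led by glycolytic enzymes. In EPR fl/fl, Gapdh had 364 ± 44.9, Ldha 359 ± 51.0 and Aldoa 327 ± 30.3 CPM per kb (SD, n = 6), and these neighbours did not differ beyond their spread. Pkm followed with 201 ± 30.2 and Tpi1 with 199 ± 17.9 CPM per kb. Ndrg1 and Higd1a, with 89.5 ± 6.78 and 89.7 ± 8.79 CPM per kb, were the most abundant of the hypoxia targets. The HIF regulators lay between 7.43 CPM per kb for Vhl and 23.8 CPM per kb for Egln2, and the lowest of all members was Slc16a3 with 0.853 ± 0.248 CPM per kb.

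Other genes of these pathways, also listed by name, were counted in the same fit. The background for these counts is that 0.884% of all tested genes rose and 1.57% fell at an adjusted p under 0.05. At an unadjusted p under 0.05 it is 11.1% higher and 7.12% lower. With DESeq2 it is 2.76% higher and 2.97% lower at an adjusted p under 0.05. Of 32 tested further hypoxia targets, 1 rose and 1 fell, with a median log2 fold change of −0.12. Car9, a carbonic anhydrase and a widely used marker of hypoxia, was at 40.6 to 49.0 CPM in EPR fl/fl and at 45.0 to 76.4 CPM in EPR cKO, where EPR cKO 1 was the lowest and the only library to overlap with the controls (log2 fold change 0.59, SE 0.11, adjusted p = 0.0153). Angptl4, an inhibitor of lipoprotein lipase that is made in fat and in epithelium, was at 8.42 to 24.0 CPM in EPR fl/fl and at 2.71 to 8.06 CPM in EPR cKO, and fell without overlap (log2 fold change −1.66, SE 0.34, adjusted p = 0.0218). Of 14 further regulators of the HIF pathway 0 passed, and 1 had an unadjusted p under 0.05 (Siah2, a ubiquitin ligase that acts on prolyl hydroxylases, log2 fold change 0.24, adjusted p = 0.224). Of 29 further genes of glycolysis and pyruvate use 0 passed, with 3 higher and 1 lower at an unadjusted p under 0.05, and the smallest adjusted p was that of the monocarboxylate transporter gene Slc16a7 (log2 fold change −0.97, adjusted p = 0.0847). Of 6 genes of gluconeogenesis, 1 fell, Pck1, which encodes an enzyme of the reverse pathway (185 to 299 CPM in EPR fl/fl and 72.9 to 194 CPM in EPR cKO, log2 fold change −1.05, SE 0.22, adjusted p = 0.0246). Over these 4 lists DESeq2 called in addition Bhlhe40 and Pklr as higher and Slc16a7 and Fbp1 as lower, and 0 of the regulators; these 4 genes except Slc16a7 were named after their values were seen. With the tissue score as a covariate, Car9 (adjusted p = 0.0727), Angptl4 (0.0910) and Pck1 (0.0889) did not pass. Leaving out 1 library kept the call of Car9 in 10 of 12 fits, and those of Angptl4 and of Pck1 in 8 of 12.

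Markers of other cell types moved between the groups beside these results. All 13 epithelium markers had log2 fold changes above 0 (median 0.25) and all 11 smooth muscle markers below 0 (median −0.53). Of either list 0 passed the adjusted threshold in edgeR (6 epithelium and 0 smooth muscle markers at an unadjusted p under 0.05). DESeq2 called 1 epithelium marker higher and 0 smooth muscle markers. Limma-voom with quality weights called 5 epithelium markers higher and all 11 smooth muscle markers lower, against 8.60% and 11.9% of all tested genes. Of 8 goblet cell markers, 6 fell, and their summed level was 13200 to 28400 CPM in EPR fl/fl and 6030 to 8400 CPM in EPR cKO. Of 8 absorptive colonocyte markers, 7 lay above 0 and 1 below, with a median log2 fold change of 0.40. In edgeR 0 of them passed, with 3 higher and 1 lower at an unadjusted p under 0.05, although DESeq2 called 1 higher. Their sums were 11100 to 17500 CPM in EPR fl/fl and 15800 to 26500 CPM in EPR cKO. All 5 adipocyte markers, which fat attached to the colon would carry, lay below 0 with 0 past the adjusted threshold and 5 at an unadjusted p under 0.05 (DESeq2 called 1), and their sum was 272 to 1000 CPM in EPR fl/fl, 566 CPM in EPR cKO 1 and 43.6 to 182 CPM in the other EPR cKO libraries. The 8 endothelium markers all lay below 0 (median log2 fold change −0.40), and 0 of them passed in edgeR (1 at an unadjusted p under 0.05) or DESeq2. Their sum was 56.4 to 74.4 CPM in controls, 90.0 CPM in EPR cKO 1 and 29.2 to 69.4 CPM in the other EPR cKO libraries. The 8 immediate early genes, which respond within minutes to stress and handling of tissue, all lay above 0 with a median log2 fold change of 0.64, and 1 of them, Fosb, rose (DESeq2 called 3). The 8 proliferation genes lay above 0 as well (median 0.34), while all 9 macrophage markers (median −0.36) and all 5 tested erythroid markers (median −1.11) lay below 0. In these 3 lists 0 passed in edgeR or in DESeq2, with 2, 0 and 2 genes at an unadjusted p under 0.05. None of 6 neutrophil markers, which would mark inflamed tissue, passed the filter on low counts, and their sum was at most 2.13 CPM. The part of cell composition in the values of the members, Car9, Angptl4 and Pck1 was not tested beyond the fit with the tissue score, which rests on EPR cKO 1.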

How the data were processed

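RNA-Seq libraries (stranded total RNA, ribosomal RNA depleted) represent 6 EPR cKO and 6 EPR fl/fl mice. The authors trimmed the reads, aligned them to mm10 with STAR 2.5.3a and counted them per Ensembl gene with featureCounts; the deposited values are raw counts, and whether strand was used is not stated, so genes with copies or antisense partners are uncertain. Groups came from the labels. In R 4.3.3, edgeR 4.0.16 (quasi-likelihood F test, TMM) compared the groups for genes with at least 1 CPM in at least 4 libraries, the filter of the study, with Benjamini-Hochberg adjustment over 15952 genes. CPM values were TMM scaled. The SE was the log2 fold change divided by the square root of F. Ratios used counts plus 0.5 per kb in exact permutation tests over 924 assignments, and the tissue score a prior count of 2. Library depths of 13093904 to 33211041 counts gave a median SE of 0.14 (log2). On simulated counts for these 15952 genes and this comparison, edgeR found 57.5% of changes of 1 on the log2 scale and 94.5% of changes of 2. Alternatives were other scalings, filters, DESeq2 1.42.0, limma-voom (limma 3.58.1), the tissue score as a covariate, a replicate block and leaving out each library. All 39 members are named, with values over libraries for the 12 with the smallest p, and up to 5 called genes of each further list. Members and lists were chosen with earlier results of these data known.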

Additional observations from a re-analysis of the deposited data

Results flagged for a closer look

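In groups of 6, a library was picked out when its gap to the nearest of the others exceeded Dixon's 95% critical value as a share of the group range. Over 92 sets of values 6 were picked out, where chance gives about 4.6, and 4 of the 6 were EPR cKO 1. In EPR cKO 1, Bnip3 was at 36.3 CPM, against 8.32 to 16.0 CPM in the other EPR cKO libraries. Bnip3l was at 109 CPM there, against 76.2 to 84.2 CPM. P4ha2 was at 8.20 CPM, against 2.59 to 4.11 CPM, and Ldhb at 16.8 CPM, against 3.59 to 7.59 CPM. EPR cKO 1 also had the lowest tissue score (−0.24). Egln1 was at 57.3 CPM in EPR fl/fl 1, against 39.8 to 45.5 CPM in the other controls. Smim31 was at 0.424 CPM in EPR cKO 2, against 0.00 to 0.134 CPM in the other EPR cKO libraries.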

How the results depend on the processing

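Hif1a, Ndrg1 and Pfkl were called in each of the 9 alternatives and 12 fits without 1 library, and Slc16a3 in all of them except without EPR fl/fl 4. Against 6 members higher and 0 lower, limma-voom gave 8 and 1 (1.10% and 2.05% of all tested genes), the DESeq2 Wald test 9 and 2 (2.76% and 2.97%), and limma-voom with quality weights 18 and 6 (8.60% and 11.9%). With DESeq2 size factors 5 members were higher (0.84% of all tested genes), with total counts 4 (0.244%) and without a filter 4 (0.147%). With filterByExpr 5 were higher (0.697%) and with the tissue score as a covariate 5 (0.495%). In each of these settings 0 members were lower. The genes tested numbered 36694 without a filter and 17502 with filterByExpr. Leaving out 1 library gave 3 (EPR fl/fl 4) to 12 (EPR cKO 1) members higher and 0 to 6 lower. Of all tested genes, 0.195% were higher without EPR fl/fl 4, and 7.44% were higher and 14.4% lower without EPR cKO 1. In the simulation, DESeq2 gave 21.5% and 22.2% false calls for log2 changes of 1 and 2. The tissue score as a covariate turned Vhl to 0.073, P4ha1 to 0.23, Pfkm to 0.15, Ldhb to 0.0011 and Kdm3a to −0.050. Total counts turned Kdm3a to −0.00082, and quality weights turned Hk2 to 0.16. Without 1 library, Vhl ran from −0.072 to 0.030, P4ha1 from −0.32 to 0.018, Kdm3a from −0.033 to 0.070 and Hk2 from −0.15 to 0.13. The median log2 fold change ran from 0.096 to 0.18 for the HIF regulators, 0.084 to 0.18 for the hypoxia targets and 0.22 to 0.30 for the glycolysis genes. The difference between the groups (EPR cKO minus EPR fl/fl) was taken for each log2 ratio. For Hif1a to Epas1 it ran from 0.40 to 0.65 (exact permutation p from 0.0303 to 0.126). It ran from −0.22 to −0.03 for Hk2 to Hk1 and from 0.69 to 1.04 for Pfkl to Pfkm. For Ldha to Ldhb it ran from 0.96 to 1.43 and for Egln3 to Egln1 from 0.55 to 0.76. The difference in tissue score ran from 0.93 to 1.64 and the log2 fold change of Smim31 from −8.85 to −7.86. The cause of these changes was not tested.

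The libraries share replicate numbers but no stated pairing, and same-numbered libraries deviated together with r from −0.24 to 0.34 and matched best with their own number only for replicates 1 and 6. With a replicate block, 5 members were higher (0.420% of all tested genes), with Egln3 in and Higd1a and Slc2a1 out. The exact permutation p within numbers was 0.0625 for Pfkl to Pfkm (difference in log2 ratio 0.84) and 0.0938 for Ldha to Ldhb (difference 1.12). With 6 animals in a group and a median SE of 0.14, the simulation found 57.5% of changes of 1 on the log2 scale, so that smaller differences can be missed.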
